A study of Mus musculus with 9 samples.

Results

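Synthesis of cholesterol and of fatty acids was followed through 36 of the 17769 genes in the count table. The genes were chosen by name as known members of the pathways. Of these, 21 belong to cholesterol synthesis: 18 enzymes that build cholesterol from acetyl-CoA, and Insig1, Srebf2 and Stard4, which control the pathway or carry its product. The other 15 belong to fatty acid synthesis and comprise suppliers of cytosolic acetyl-CoA, enzymes that build, lengthen or desaturate the chain, and the regulator Srebf1. All 36 were in the table, and all 36 were among the 13608 genes that passed the filter on low counts.

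RNA came from sorted bone marrow cells of mice, labelled MEP. MEP is the usual short form of megakaryocyte-erythroid progenitors, the shared precursors of platelets and red cells. Libraries were made by Smart-Seq2, which copies whole transcripts from their poly(A) tails and keeps neither strand nor molecular identifiers. The series concerns metabolism in blood cells with mutant Jak2, the kinase downstream of the erythropoietin and thrombopoietin receptors. There were 3 groups of 3 libraries, all on the C57BL/6N background. VF carried SclCre, a recombinase, with the V617F allele, E12 carried SclCre with the Exon12 allele, and WT was labelled wild type without a word on Cre. Jak2 mutations were induced by 5 daily tamoxifen injections, and cells were taken after 12 weeks (VF, WT) or 6 weeks (E12). E12 therefore differed from both other groups in time as well as genotype, and these cannot be told apart. The labels do not say whether libraries of a group are separate mice, so p-values measure only the spread between libraries, which may be technical.

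Cells make cholesterol by joining acetyl-CoA units into mevalonate, converting it to isoprenoid units, linking these to squalene, folding squalene into lanosterol and trimming lanosterol to cholesterol. Fatty acids start from the same cytosolic acetyl-CoA, which is carboxylated to malonyl-CoA, built into palmitate by Fasn and then lengthened or desaturated. Srebf2 and Srebf1 encode SREBP-2 and SREBP-1, membrane-bound transcription factors that raise the cholesterol and the fatty acid genes when they are cut free. Insig1 holds them in the endoplasmic reticulum when sterols are plentiful. Dividing blood progenitors use both products for new membrane.

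SREBP binds sterol regulatory elements, and the factor NF-Y, which binds CCAAT boxes, is known to act beside it. RefSeq start sites on GRCm38.p6 were therefore searched from 250 bases before to 50 bases after the start for the letters TCACNCCAC, a common form of the sterol element, and CCAAT, each on both strands. Promoter entries were at hand for 28 members. TCACNCCAC was found in 1 of the 17 cholesterol genes with an entry, Hmgcs1, and in 0 of the 11 fatty acid genes, against 1.24% of all 32851 promoters. CCAAT was found in 16 of the 17 cholesterol genes and 8 of the 11 fatty acid genes, against 37.4% of all promoters. Among the tested genes with an entry the CCAAT share was 43.2%. These matches are letters in a window, and binding was not measured. Shown are the 250 bases upstream of Hmgcs1 (chr13:119690101-119690350, plus strand), the enzyme with the largest increase in VF, and windows around 1 CCAAT box each of Insig1 (chr5:28071171-28071225, plus strand) and Srebf2 (chr15:82147109-82147163, plus strand), which also rose, and of Pmvk (chr3:89454380-89454434, plus strand), Ebp (chrX:8193538-8193592, minus strand) and Tm7sf2 (chr19:6067868-6067922, minus strand), which fell. All run 5′ to 3′ on the gene's strand. Capitals mark the CCAAT box, which reads ATTGG where it lies on the opposite strand, and in Hmgcs1 also the run TCACCCCAC at bases -137 to -129 from the start.
Hmgcs1: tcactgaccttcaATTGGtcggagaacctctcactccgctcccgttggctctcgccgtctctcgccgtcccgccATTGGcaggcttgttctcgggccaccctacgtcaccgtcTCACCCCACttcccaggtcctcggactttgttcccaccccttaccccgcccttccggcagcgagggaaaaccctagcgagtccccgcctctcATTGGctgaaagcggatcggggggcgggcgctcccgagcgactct
Insig1: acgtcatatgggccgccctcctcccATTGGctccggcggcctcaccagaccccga
Srebf2: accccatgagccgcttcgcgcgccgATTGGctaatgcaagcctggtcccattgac
Pmvk: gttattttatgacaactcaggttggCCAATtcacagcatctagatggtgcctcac
Ebp: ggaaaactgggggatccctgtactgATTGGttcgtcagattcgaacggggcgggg
Tm7sf2: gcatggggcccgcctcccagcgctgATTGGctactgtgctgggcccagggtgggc
Only called genes with a CCAAT box before the start are shown, so its presence in genes that rose and genes that fell follows from this choice.

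Total counts were 33838681 to 39736096 in WT, 19256431 to 21331168 in VF and 20328414 to 23499914 in E12. The sample descriptions carry facility numbers from 1 range for VF and E12 and from another, higher range for WT, so in comparisons with WT the genotype cannot be told apart from the library series. In WT, genes under 1 kb took 11.2% to 27.9% of the counts, the highest in WT 50, against 6.92% to 8.97% in the mutants. Genes listed at 0 made up 27.2% to 30.1% in WT and 10.7% to 18.7% in the mutants. The 10 erythroid markers summed to 22696 to 37102 CPM in WT, 1320 to 1963 in VF and 8644 to 12121 in E12, with all 10 detected in each group. Of these, Tfrc, the transferrin receptor, went the other way in E12, with means of 118 CPM in WT, 75.3 in VF and 1208 in E12 (log2 fold change 3.36 in E12). Slc4a1 did so too, at 1.71, 1.62 and 2.04 CPM in WT and above these in E12 (log2 fold change 6.35, edgeR adjusted p = 0.018). It reached 431 CPM in E12 5, while the remaining libraries of that group had 6.29 and 3.70. The 9 megakaryocyte markers summed to 57.0 to 175 CPM in WT, where Itgb3 and Gp6 were at 0, 1946 to 2510 in VF and 352 to 441 in E12. Gp6 was nearly absent from the mutants too, with at most 1 count in a VF library and 6 in an E12 library. The 6 stem cell markers summed to 13.1 to 21.2 CPM in WT, with Mecom and Tek at 0, 1107 to 1153 in VF and 231 to 437 in E12. The 6 neutrophil markers summed to 132 to 659, 6647 to 12522 and 1177 to 2160 CPM in the same order. Mpo made up most of the mutant sums, with means of 6888 CPM in VF and 1446 in E12. Ly6g went the other way, with means of 7.99 CPM in WT, 1.06 in VF and 0.72 in E12. Elane did so in E12, with means of 124 CPM in WT, 974 in VF and 56.1 in E12. Monocyte markers summed to 10.3 to 59.3, 213 to 323 and 115 to 189 CPM, mast cell and basophil markers to 23.3 to 62.8, 292 to 319 and 30.1 to 172, B cell markers to 200.1 to 2119, 95.7 to 166 and 23.1 to 393, and T cell markers, with Cd8a at 0 in WT, to 17.6 to 35.9, 25.8 to 40.4 and 6.52 to 24.3. Cd8a had at most 2 counts in a VF library and 3 in an E12 library. The part of these differences in cell content in the results was not tested, and in these bulk libraries fewer cells of a type and less RNA per cell cannot be told apart. CPM below are counts scaled to library size with TMM factors, which ran from 0.456 (WT 50) to 1.28 (VF 3), and values per library are given in the order WT 50, 51, 52, VF 1, 2, 3 and E12 1, 2, 5.

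Added up over the list, the 21 cholesterol genes reached 1229 to 1797 CPM in WT, 943 to 972 in VF and 987 to 1039 in E12. The 15 fatty acid genes summed to 1307 to 1737 CPM in WT, 1253 to 1277 in VF and 1568 to 1774 in E12. The cholesterol sums of both mutants lay below all WT libraries, while the fatty acid sums of E12 overlapped WT and lay above VF. Abundant genes weigh most in such sums. In WT 50 Ebp was at 766 CPM, Pmvk at 317 and Fdps at 295, genes of 1743, 1705 and 1461 bases. The cholesterol sums therefore do not speak for each gene, and the median log2 fold change of that list was 0.26 in VF and 0.51 in E12. Per kilobase of gene length, Elovl1 was the highest member in every group, at 384 ± 154 CPM per kb (SD, n = 3) in WT, where its spread overlapped that of Ebp (244 ± 170.1), 106 ± 4.82 in VF and 152 ± 31.8 in E12. Acacb was lowest in WT (0.18 ± 0.197) and E12 (0.175 ± 0.0484), and Scd1 was lowest in VF (0.159 ± 0.107). Acly moved from 15.9 ± 6.60 CPM per kb in WT to 63.1 ± 3.46 in VF and 81.1 ± 6.86 in E12, the third highest level in both mutants.

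**Figure D1:**
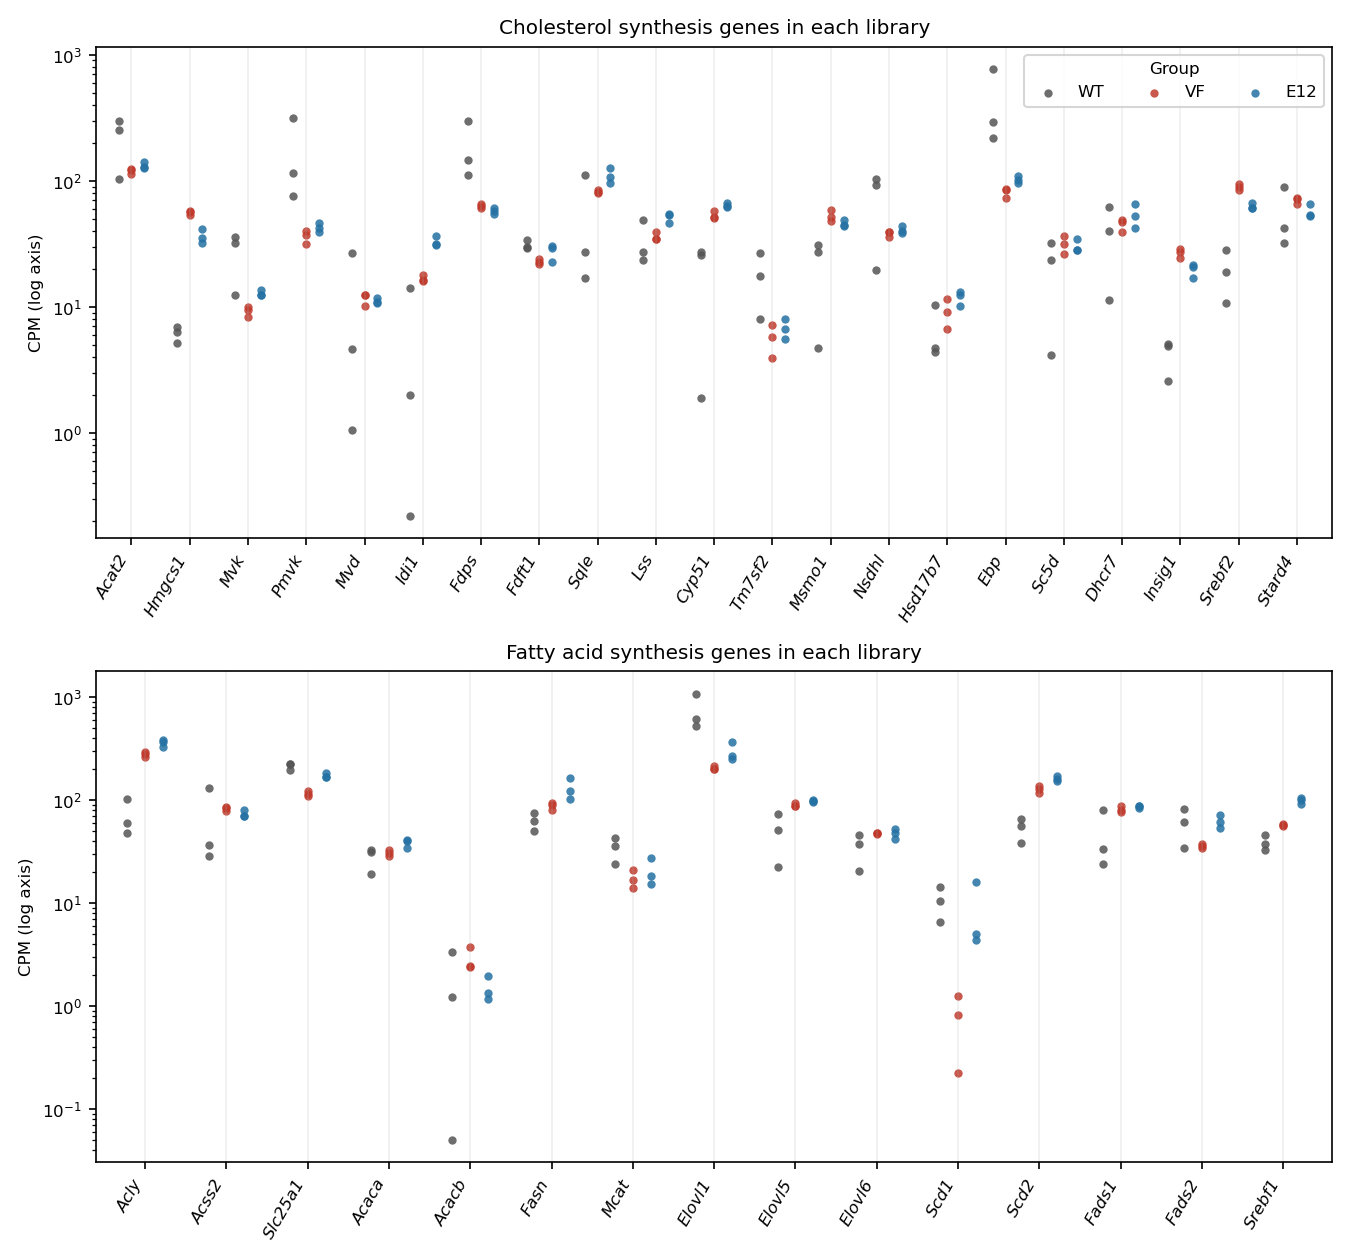
Level of each of the 36 genes in every library, in CPM on a log axis, with cholesterol genes above and fatty acid genes below in pathway order. Each point is 1 library and colours mark the 3 groups. VF and E12 points lie close together for most genes, while WT points spread, as for Idi1, from 4 counts in WT 50 to 414 in WT 52.

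In cholesterol synthesis, both mutants had more RNA than WT for Hmgcs1, the synthase that opens the mevalonate route, and for the 2 regulators Insig1 and Srebf2. They had less for several enzymes, among them Pmvk and Fdps of the mevalonate steps and Ebp of the steps from lanosterol to cholesterol. In the squalene and lanosterol steps between these, 0 genes were called. With an offset for gene length, described further on, these directions held, and Srebf2 was not called in E12 (0.56). In VF, 3 of 21 genes were called higher than WT and 5 lower (edgeR, adjusted p under 0.05), or 14.3% and 23.8% of the list, against 27.7% and 20.9% of all tested genes. In E12, 3 were called higher and 4 lower, or 14.3% and 19%, against 23.9% and 18.1% of all tested genes. The median log2 fold change of the list was 0.26 in VF and 0.51 in E12, against 0.36 in both for all tested genes. Both comparisons use the same WT libraries, so likeness between them is not independent. Another scaling (RLE factors) moved the all-gene median to 0.21 for VF and 0.17 for E12, and that of the list to 0.14 and 0.38.

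Among the mevalonate steps, Hmgcs1 (chr13:119690351-119708260), which makes HMG-CoA, was at 6.35, 5.14 and 6.94 CPM in WT, 57.3, 54 and 56.1 in VF and 35.1, 41.3 and 32 in E12. Every mutant library lay above every WT library and every VF library above every E12 library. The log2 fold change was 3.18 ± 0.24, adjusted p = 0.00012, in VF and 2.56 ± 0.24, adjusted p = 0.00053, in E12. Pmvk (chr3:89454541-89469014), the second of the kinases that phosphorylate mevalonate, was at 317, 116 and 76.1 CPM in WT, 39.7, 36.9 and 31.3 in VF and 46.1, 42.2 and 39.3 in E12. All mutant libraries lay below WT, and WT 50 stood apart from the other WT libraries. Its log2 fold change was -2.24 ± 0.47, adjusted p = 0.0051, in VF and -1.99 ± 0.47, adjusted p = 0.0101, in E12. Leaving out WT 50 gave -1.57 and -1.33, and leaving out WT 52 gave -2.89 and -2.65, all still called. Fdps (chr3:89093588-89101967), which makes farnesyl diphosphate, the branch point to sterols and protein prenylation, was at 295, 147 and 111 CPM in WT, 65.5, 60.3 and 62.9 in VF and 60.6, 54.6 and 57.8 in E12. Its levels in both mutants lay below WT without overlap, with log2 fold changes of -1.55 ± 0.34, adjusted p = 0.0062, in VF and -1.68 ± 0.35, adjusted p = 0.0065, in E12.

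The other mevalonate genes were less even. Mvk (chr5:114444264-114460591), the first mevalonate kinase, was at 35.6, 32 and 12.3 CPM in WT, 9.45, 10.03 and 8.35 in VF and 12.5, 12.5 and 13.5 in E12. All VF libraries were below WT, while the E12 values were close to that of WT 52. Mvk was called lower in VF (-1.52 ± 0.40, adjusted p = 0.013), a call lost without VF 3 (adjusted p = 0.054), and reached -1.05 ± 0.40, adjusted p = 0.059, in E12, where it was called without WT 52 (-1.68, adjusted p = 0.0011). Without WT 52 the VF change was -2.15. Idi1, which interconverts the isoprenoid units, was at 0.221, 1.99 and 14.1 CPM in WT, 16.4, 17.9 and 16.1 in VF and 31.2, 31.7 and 36.3 in E12. The E12 values lay above all WT and VF libraries, yet the WT spread left log2 fold changes of 1.62 ± 0.99, adjusted p = 0.202, in VF and 2.6 ± 1.02, adjusted p = 0.067, in E12. Without WT 52 both were called, at 3.61 (adjusted p = 0.00303) and 4.59 (adjusted p = 0.0016). Acat2, which joins acetyl-CoA units, was at 102, 253 and 298 CPM in WT, 114, 124 and 121 in VF and 141, 127 and 129.6 in E12. It did not pass the test (-0.86 ± 0.36, adjusted p = 0.071, in VF and -0.71 ± 0.35, adjusted p = 0.13, in E12), but did without WT 50, at -1.32 and -1.18 (adjusted p = 3.9e-05 and 0.00015). Mvd, the decarboxylase, spanned 26.7, 4.64 and 1.05 CPM in WT and 10.1 to 12.5 in the 6 mutant libraries, and was called higher in both mutants without WT 50 (1.84 in VF and 1.77 in E12).

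The steps from farnesyl diphosphate to lanosterol did not pass the test. Fdft1, which makes squalene, was at 29.4, 33.8 and 29.6 CPM in WT, 22.8, 21.7 and 23.8 in VF and 30.6, 22.7 and 29.5 in E12, a log2 fold change of -0.44 ± 0.23, adjusted p = 0.14, in VF. Its gene overlaps Ctsb, an abundant protease gene, by 774 bases, and reads there cannot be assigned without strand. Sqle, the epoxidase that commits squalene to sterols, was at 17, 27.3 and 111 CPM in WT, 84.6, 81.9 and 80.3 in VF and 125, 96.8 and 107 in E12. WT 52 alone reached the mutant levels: without it Sqle was called higher in VF (1.62, adjusted p = 0.00083) and E12 (2.04, adjusted p = 0.00071), and with it the changes were 0.67 ± 0.58, adjusted p = 0.37, and 1.08 ± 0.58, adjusted p = 0.16. Lss, which closes the rings of lanosterol, was at 23.6, 27.2 and 48.9 CPM in WT, 34.2, 34.6 and 38.9 in VF and 53.6, 54.9 and 46.5 in E12. With all libraries it was not called, and without WT 52 it was called higher in E12 (0.75, adjusted p = 0.011).

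Of the 8 genes that trim lanosterol to cholesterol, Ebp and Tm7sf2 fell. Ebp (chrX:8185329-8193512), the sterol isomerase, was at 766, 292 and 219.8 CPM in WT, 86.2, 85.3 and 73.2 in VF and 109, 96.6 and 101 in E12. It was the most abundant cholesterol gene of WT 50, and every mutant library lay below every WT library. The log2 fold change was -2.38 ± 0.44, adjusted p = 0.0029, in VF and -2.06 ± 0.44, adjusted p = 0.0072, in E12. Leaving out WT 50 gave -1.79 and -1.47, and leaving out WT 52 gave -3.00 and -2.68, with both calls kept. Tm7sf2 (chr19:6062821-6067850), a sterol reductase, was at 26.7, 17.5 and 7.99 CPM in WT, 3.90, 7.12 and 5.76 in VF and 7.96, 6.70 and 5.60 in E12. All VF libraries were below WT, and E12 1 was close to WT 52. It was called lower at -1.64 ± 0.49, adjusted p = 0.021, in VF and -1.36 ± 0.48, adjusted p = 0.047, in E12. These calls were weak. The VF call was lost without VF 1 (adjusted p = 0.084) or VF 3 (0.067), and the E12 call without any library other than WT 52 (adjusted p from 0.055 without WT 51 to 0.14 without E12 5). Without WT 52 the changes were -2.27 and -2.00.

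Cyp51 and Msmo1, which remove the first methyl groups of lanosterol, had the opposite pattern without passing the test. Cyp51 was at 1.88, 25.6 and 27.3 CPM in WT, 58.1, 50.4 and 52 in VF and 66.5, 62.7 and 62.1 in E12. All mutant libraries exceeded WT, and WT 50 was far below the other WT libraries. The changes were 1.55 ± 0.71, adjusted p = 0.098, in VF and 1.80 ± 0.71, adjusted p = 0.068, in E12, and without WT 50 both were called, at 0.89 (adjusted p = 8.0e-04) and 1.14 (adjusted p = 0.00034). Msmo1 was at 4.69, 27.3 and 30.8 CPM in WT, 58.8, 52 and 48.1 in VF and 43.8, 44.5 and 48.7 in E12. It too lay above WT in all mutant libraries, with 1.34 ± 0.54, adjusted p = 0.068, in VF and 1.12 ± 0.54, adjusted p = 0.12, in E12, and was called in both without WT 50 (0.75 and 0.53). Nsdhl, which works with Msmo1, was at 19.5, 92.5 and 102 CPM in WT, 39.3, 39.6 and 35.7 in VF and 39.8, 38.5 and 43.7 in E12. WT 50 was below the mutants and the other WT libraries above them, and Nsdhl was called lower without WT 50 (-1.48 in VF and -1.38 in E12). Hsd17b7, Sc5d and Dhcr7, the remaining enzymes, had log2 fold changes of 0.49, 0.65 and 0.26 in VF and 0.88, 0.61 and 0.51 in E12, none past the test, and their mutant ranges overlapped WT. Without WT 51, Hsd17b7 was called higher in E12 (1.21, adjusted p = 0.033).

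Insig1 and Srebf2, the regulators, rose. Insig1 (chr5:28071412-28078662), itself a sterol-sensitive gene, was at 4.86, 2.58 and 5.10 CPM in WT, 28.8, 27.2 and 24.4 in VF and 16.9, 21.5 and 20.8 in E12. The mutant libraries lay above WT without overlap, with log2 fold changes of 2.68 ± 0.35, adjusted p = 0.00065, in VF and 2.24 ± 0.34, adjusted p = 0.0022, in E12. Gm35223, a gene of a long noncoding RNA, overlaps Insig1 by 7251 bases, its full span. Without strand, reads there cannot be assigned. Srebf2 (chr15:82147269-82205379) was at 10.8, 19 and 28.3 CPM in WT, 84.7, 94.3 and 89.6 in VF and 61.3, 60.4 and 66.1 in E12. Again the 3 groups did not overlap, with VF highest, and the changes were 2.21 ± 0.33, adjusted p = 0.0011, in VF and 1.69 ± 0.32, adjusted p = 0.0051, in E12. Stard4, which carries cholesterol between membranes, was at 89.6, 32.2 and 42.5 CPM in WT, 73.4, 65.6 and 71.8 in VF and 52.9, 53.7 and 65 in E12. WT 50 exceeded all mutant libraries, and Stard4 was called higher without it (0.80 in VF and 0.50 in E12). Without WT 50 the cholesterol counts were 7 higher and 8 lower in VF, where 32.8% and 27.1% of all tested genes were called. In E12 they were 8 higher and 5 lower, against 28.4% and 24% of all tested genes. Without WT 52 they were 5 and 6 in VF, against 30.8% and 26.1%, and 6 and 5 in E12, against 27.8% and 24.5%. Without VF 3 the lower count of VF was 3, and 14.1% of all tested genes were called lower.

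**Figure D2:**
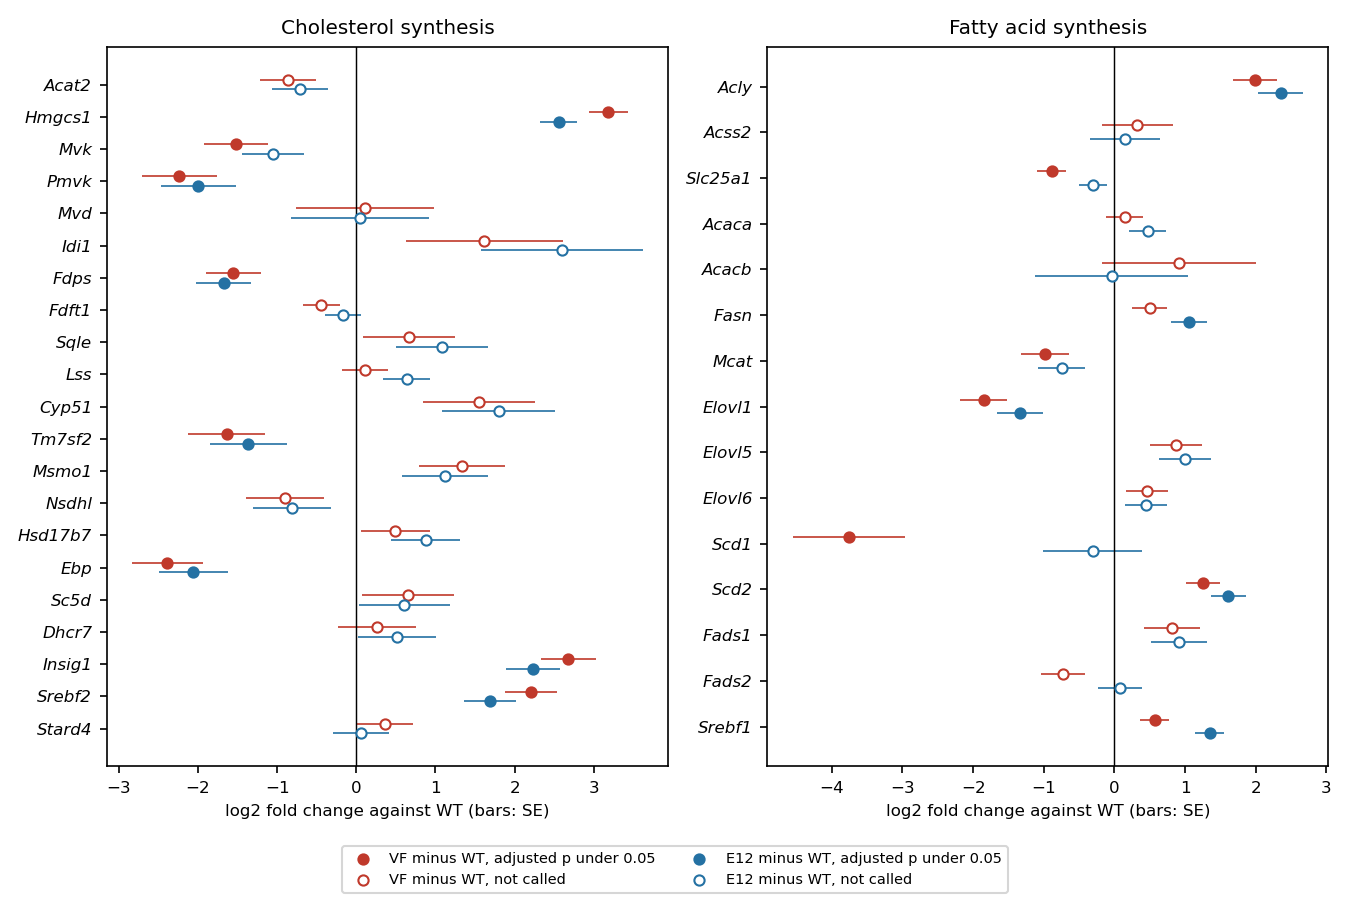
Log2 fold change of each gene against WT with its standard error, cholesterol genes at left and fatty acid genes at right, from the first step at the top to the regulators at the bottom. Filled points passed an adjusted p of 0.05 and open points did not. Hmgcs1, Insig1, Srebf2, Acly and Scd2 sit to the right in both mutants, Pmvk, Fdps, Ebp and Elovl1 to the left, and Scd1 is far left in VF alone, at -3.76.

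In fatty acid synthesis, Acly, Scd2 and Srebf1 were higher in both mutants than in WT, Elovl1 was lower in both, and Scd1 was lower in VF. With an offset for gene length, described further on, the signs of Scd2 and Srebf1 turned in VF (-0.12 and -0.69) and neither was called in E12. In VF, 3 of 15 genes were called higher than WT (20%, against 27.7% of all genes) and 4 lower (26.7%, against 20.9%). In E12, 4 were called higher (26.7%, against 23.9%) and 1 lower (6.67%, against 18.1%). The median log2 fold change was 0.46 in VF and 0.45 in E12. The lower count of E12 was 0 without E12 2 (9.48% of all tested genes), 2 without WT 50 (24%) and 3 without WT 52 (24.5%).

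Of the suppliers of acetyl-CoA, Acly (chr11:100476352-100528000), the citrate lyase that makes cytosolic acetyl-CoA for both pathways, was at 47.6, 60.1 and 103 CPM in WT, 262, 284 and 292 in VF and 384, 367 and 325 in E12. The mutant libraries lay above WT and E12 above VF, with no overlap between any groups. The log2 fold change against WT was 1.99 ± 0.31, adjusted p = 0.0014, in VF and 2.35 ± 0.32, adjusted p = 0.0015, in E12. Slc25a1 (chr16:17925211-17928219), the carrier that exports citrate from mitochondria, was at 197, 224 and 223 CPM in WT, 115, 122 and 111 in VF and 185, 168 and 169 in E12. It had the smallest spread of any member among WT libraries, a coefficient of variation of 7.20%. All VF libraries were below E12 and E12 below WT, and it was called lower in VF (-0.89 ± 0.20, adjusted p = 0.0066) and not in E12 (-0.30 ± 0.20, adjusted p = 0.24). On the authors' deposited log2 levels the VF change was -0.18 (limma, adjusted p = 0.39). The E12 change was called without WT 50 (-0.49, adjusted p = 0.011) or WT 52 (-0.55, adjusted p = 0.027). Acss2, which makes acetyl-CoA from acetate, was at 28.9, 36.8 and 133 CPM in WT, 79.1, 83.1 and 86.2 in VF and 80.2, 69.6 and 70.5 in E12, and WT 52 exceeded all other libraries. Without it Acss2 was called higher (1.06 in VF and 0.88 in E12).

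Among the chain builders, Fasn (chr11:120805958-120825166), the fatty acid synthase, was at 74.4, 62.4 and 50.4 CPM in WT, 94, 80.9 and 90.1 in VF and 122, 163 and 104 in E12. Both mutants lay above WT without overlap, and E12 above VF. It was called higher in E12 (1.06 ± 0.25, adjusted p = 0.0101) and not in VF (0.50 ± 0.25, adjusted p = 0.12). The E12 call was lost without WT 51 (0.84, adjusted p = 0.0704) or WT 52 (0.64, adjusted p = 0.057). Acaca, the main acetyl-CoA carboxylase, was at 31.3, 33 and 19 CPM in WT, 33, 28.7 and 30.5 in VF and 40.1, 40.7 and 34.5 in E12, with changes of 0.15 ± 0.26, adjusted p = 0.66, and 0.47 ± 0.26, adjusted p = 0.17. Acacb, the mitochondrial form, had 1 to 98 counts per library and at most 3.77 CPM. Mcat, the malonyl transferase of the separate mitochondrial pathway, was at 36.1, 42.9 and 23.9 CPM in WT, 21, 16.8 and 14.2 in VF and 27.6, 18.6 and 15.2 in E12. It was called lower in VF (-0.99 ± 0.34, adjusted p = 0.037), a call lost on leaving out WT 51, VF 1, VF 2, VF 3 or E12 2 alone (adjusted p from 0.054 to 0.13), and in E12 reached -0.74 ± 0.34, adjusted p = 0.102, or -1.23 (adjusted p = 0.0089) without WT 52.

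Of the elongases, Elovl1 (chr4:118426874-118432953), which makes very long saturated chains, was at 1085, 616 and 532 CPM in WT, 203, 217 and 199.5 in VF and 365, 251 and 269 in E12. All mutant libraries lay below WT and VF below E12. The changes were -1.85 ± 0.33, adjusted p = 0.0024, in VF and -1.34 ± 0.33, adjusted p = 0.011, in E12, and the E12 call was lost without E12 2 (adjusted p = 0.054). On the authors' deposited log2 levels they were smaller, -0.45 and -0.16 (limma, adjusted p = 0.045 and 0.45). The gene overlaps Cdc20 by 53 bases, an abundant cell cycle gene. Elovl5, which lengthens polyunsaturated chains, was at 51, 22.3 and 73.9 CPM in WT, 88, 87.3 and 93.2 in VF and 100.4, 95.3 and 97.5 in E12. It lay above WT in all mutant libraries and was called without WT 52 (0.99 in VF and 1.12 in E12). Elovl6, which lengthens palmitate, was at 20.3, 37.7 and 45.8 CPM in WT, 46.8, 48.1 and 47.7 in VF and 41.7, 47.5 and 52.8 in E12, with changes of 0.46 ± 0.30, adjusted p = 0.23, and 0.45 ± 0.30, adjusted p = 0.25.

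The desaturases split, most sharply the pair Scd1 and Scd2, neighbouring paralogs on chromosome 19 that place the first double bond. Scd1 (chr19:44394450-44407709) was at 6.52, 10.5 and 14.3 CPM in WT, 0.225, 0.82 and 1.26 in VF and 5.04, 4.34 and 15.9 in E12, from 6, 22 and 31 counts in the VF libraries. VF lay below every other library, while E12 overlapped WT and varied, with E12 5 above all WT libraries. The changes against WT were -3.76 ± 0.79, adjusted p = 0.00498, in VF and -0.31 ± 0.70, adjusted p = 0.75, in E12. Scd2 (chr19:44293676-44306864) was at 38.3, 56.6 and 65.4 CPM in WT, 129, 117 and 136 in VF and 155, 173 and 162 in E12, with WT lowest, E12 highest and no overlap between groups. Its changes were 1.25 ± 0.24, adjusted p = 0.0036, in VF and 1.61 ± 0.25, adjusted p = 0.0023, in E12. How reads shared by the 2 paralogs were counted is not given in the sources used here. Fads1 and Fads2, which desaturate polyunsaturated chains, are also neighbours on that chromosome. Fads1 was at 24.2, 33.3 and 80.6 CPM in WT, 87.2, 80.3 and 76.8 in VF and 88.3, 83.8 and 88.4 in E12, and was called higher without WT 52 (1.23 in VF and 1.32 in E12). Fads2 was at 61.6, 34.2 and 82.9 CPM in WT, 34.6, 37.6 and 36 in VF and 72.6, 54.2 and 62 in E12, with VF below E12 throughout. Its change in VF was -0.72 ± 0.31, adjusted p = 0.082, and it was called lower without WT 50 (-0.79) or WT 51 (-1.17).

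On the authors' deposited log2 levels (limma), several called fold changes against WT differed from those of the counts by over 1.5 times. Slc25a1 and Elovl1 are given above, and the calls of the others were kept. On the log2 scale the VF change was 2.59 for Hmgcs1, -1.33 for Ebp, 1.83 for Insig1, -0.95 for Fdps, -2.20 for Mvk, -2.57 for Tm7sf2, 2.58 for Acly and -5.86 for Scd1. The E12 change was -1.09 for Ebp, 1.45 for Insig1 and 1.81 for Hmgcs1.

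Srebf1 (chr11:60199084-60224186), the regulator of this pathway, was at 33, 37.3 and 45.7 CPM in WT, 57.2, 55.8 and 59.2 in VF and 105, 91.7 and 99.6 in E12. The 3 groups did not overlap, and E12 was highest, whereas for Srebf2 VF was highest. Srebf1 was called higher in E12 (1.35 ± 0.21, adjusted p = 0.0023) and weakly in VF (0.57 ± 0.20, adjusted p = 0.043). The VF call was lost on leaving out any library other than WT 50 (adjusted p from 0.0503 without WT 52 to 0.13 without VF 3) and with RLE factors (0.079). Without WT 52 the fatty acid genes called higher in VF numbered 5, where 30.8% of all tested genes were called higher.

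Between the mutants, the direct comparison of E12 with VF called 0 of the 36 genes in the fit of all 9 libraries (edgeR), where 2.19% of all genes were called higher in E12 and 1.02% lower. At an unadjusted p under 0.05, 0 cholesterol genes were higher and 1 lower, and 4 fatty acid genes were higher and 0 lower, against 9.27% and 8.48% of all tested genes. DESeq2 called 0 cholesterol genes higher and 1 lower and 3 fatty acid genes higher and 0 lower, against 6.32% and 6.14% of all tested genes. Limma-voom called 1 fatty acid gene higher and no other member, against 3.02% and 3.77%. Limma on the deposited levels called 1 cholesterol gene lower and 3 fatty acid genes higher, against 7.15% and 5.96%. The edgeR fit of all 9 libraries shares 1 estimate of the spread with WT, whose median coefficient of variation over the cholesterol genes was 55.8%, against 7.61% in VF and 8.58% in E12. Over the fatty acid genes it was 37.6%, 5.48% and 8.89%, and over all tested genes 61.7%, 9.70% and 16.2%. Fitted on the VF and E12 libraries alone, 6 cholesterol genes were higher in E12 and 2 lower, and 9 fatty acid genes were higher and 0 lower. In that fit 25.4% of all genes were called higher and 22.6% lower.

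In the fit of the 2 mutant groups alone, the regulators moved apart. Srebf1 was higher in E12 (0.81 on the log2 scale, adjusted p = 0.00018), and Srebf2 was lower (-0.48, adjusted p = 0.0033) together with Hmgcs1 (-0.59, adjusted p = 0.0043). With all 9 libraries these changes were 0.78 ± 0.20, adjusted p = 0.077, -0.52 ± 0.32, adjusted p = 0.45, and -0.63 ± 0.22, adjusted p = 0.18. Higher in E12 in the 2-group fit were the fatty acid genes Acly (0.39), Slc25a1 (0.62), Acaca (0.36), Fasn (0.59), Elovl1 (0.54), Scd1 (3.50), Scd2 (0.39) and Fads2 (0.83). The cholesterol genes higher in E12 were Mvk (0.50), Idi1 (1.01), Sqle (0.45), Lss (0.56), Cyp51 (0.29) and Ebp (0.36). Scd1 had the largest difference, 3.45 ± 0.78 with an adjusted p of 0.0501 in the fit of all libraries, and it was called there without WT 50 (adjusted p = 0.011) or WT 52 (0.034). Srebf1 was called there without WT 50 (0.0027), WT 51 (0.039) or WT 52 (0.018). Without WT 50, Slc25a1 was called higher too, and Hmgcs1 and Srebf2 lower, and without WT 51 Fads2 was called higher.

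**Figure D3:**
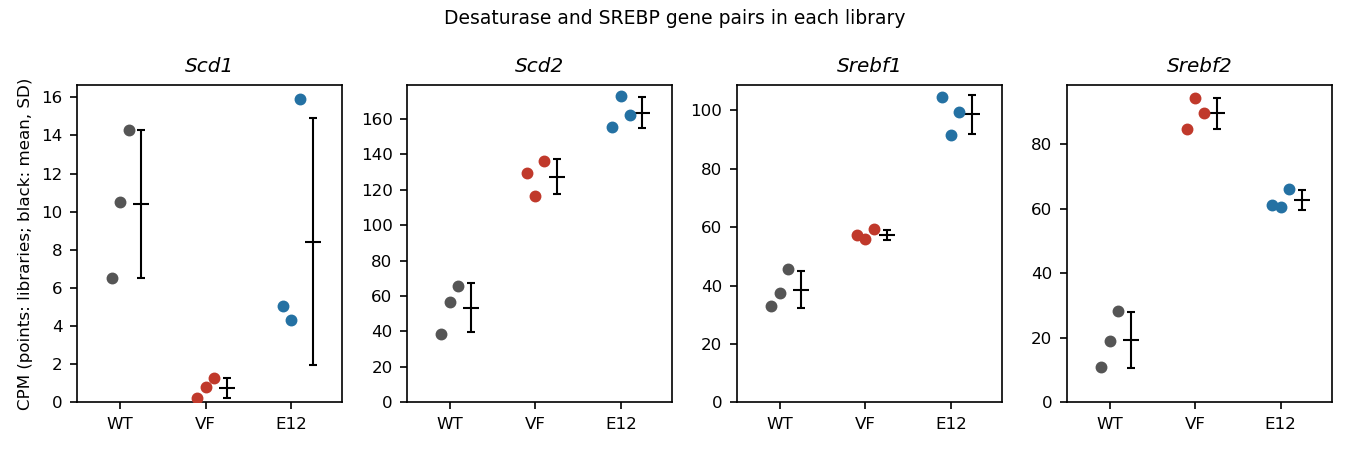
Levels of Scd1, Scd2, Srebf1 and Srebf2 in CPM on linear axes from 0, with 1 coloured point per library, by group, and the group mean with its SD (n = 3) in black. Scd1 is lowest in VF, at 0.225 to 1.26 CPM, where Scd2 is at 117 to 136, and Srebf2 is highest in VF while Srebf1 is highest in E12.

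Gene length moved with the direction against WT. Of the 9 members called lower in VF, 8 were 1461 to 1940 bases long and Scd1 was 4837, whereas the 6 called higher were 2648 (Insig1) to 5451 bases (Scd2). All 5 called lower in E12 were 1461 to 1940 bases long. The same held for genes at large. In VF, all tested genes had a median log2 fold change of -1.77 for genes up to 1 kb, -0.79 for 1 to 2 kb, 0.24 for 2 to 3 kb, 0.89 for 3 to 5 kb and 1.22 above 5 kb, and in E12 it ran from -1.84 to 1.11. The members of 1 to 2 kb had medians of -1.52 in VF and -1.05 in E12, and those of 3 to 5 kb had 0.82 and 1.35. Between the mutants the medians of the length classes lay between -0.16 and -0.01.

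With an offset for gene length in each library, which sets the fold change relative to genes of like length, 4 cholesterol genes were called higher in VF and 8 lower, and 1 fatty acid gene higher and 8 lower. Then 17.8% of all genes were called higher and 29.9% lower. In E12 the counts were 2 and 5 cholesterol genes and 1 and 2 fatty acid genes, with 13% and 20.4% of all genes. Hmgcs1 (2.08 in VF and 1.5 in E12), Insig1 (1.94 and 1.55) and Acly (0.77 and 1.23) were still called higher in both mutants. Pmvk (-2.01 and -1.67), Fdps (-0.89 and -0.89), Ebp (-2.23 and -1.82) and Elovl1 (-2.01 and -1.43) were still called lower in both. Srebf2 was called higher in VF (0.97, adjusted p = 0.0041) and not in E12 (0.56, adjusted p = 0.057). Scd2 was no longer called (-0.12 in VF and 0.38 in E12), nor was Tm7sf2 (-0.99 and -0.61). Srebf1 turned to -0.69 in VF (adjusted p = 0.0055) and 0.18 in E12 (adjusted p = 0.37), and Fasn to -1.03 and -0.24. Scd1 fell further in VF (-5.07). Between the mutants, where 7.69% of genes were called higher and 2.71% lower with the offset, Scd1 (3.59, adjusted p = 0.019), Srebf1 (0.87, adjusted p = 0.0093) and Slc25a1 (0.68, adjusted p = 0.017) were called higher in E12.

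**Figure D4:**
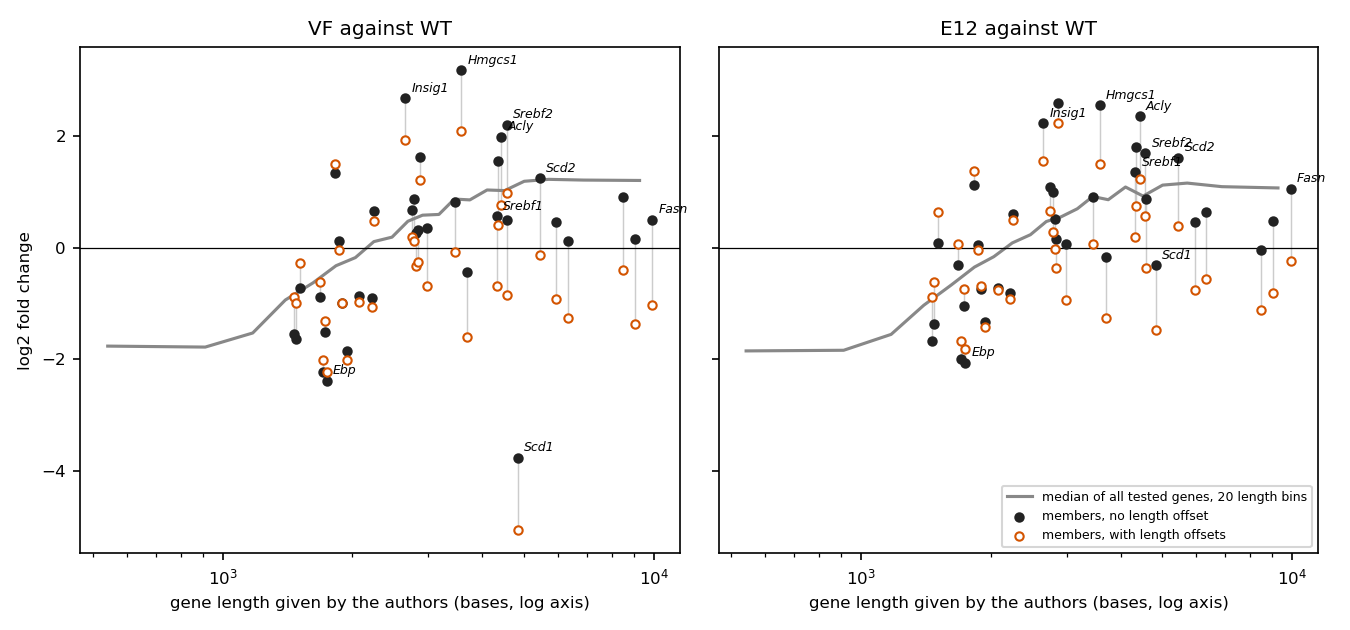
Log2 fold change of each of the 36 genes, for VF and E12 against WT, by gene length in bases on a log axis. Black points are without and open points with the length offset, a grey bar joins the pair, and the grey line is the median of all tested genes in bins of length. Members of 1 to 2 kb have medians of -1.52 in VF and -1.05 in E12, and Hmgcs1, Insig1 and Acly lie above the line.

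Among 18 other genes of SREBP processing and sterol handling, 7 were called higher in VF and 1 lower (38.9% and 5.56% of the list, against 27.7% and 20.9% of all tested genes), and 6 higher and 1 lower in E12 (33.3% and 5.56%, against 23.9% and 18.1%). Soat1, which stores cholesterol as esters, had 1, 3 and 2 counts in the WT libraries, 932, 936 and 1133 in VF and 159, 501 and 216 in E12, the lowest p of the list in both comparisons (adjusted p = 9.5e-05 and 0.00043). Mbtps2, the protease that releases SREBP, was at 6.29, 2.37 and 7.82 CPM in WT, 20.6, 21.4 and 20.4 in VF and 19.7, 14.5 and 19.5 in E12, an increase of 1.92 ± 0.44, adjusted p = 0.0069, in VF. Scap, the escort of SREBP, was at 44.1, 25.6 and 26.6 CPM in WT, 53.7, 52.3 and 59.6 in VF and 78.9, 81.2 and 69.9 in E12, an increase of 1.26 ± 0.26, adjusted p = 0.0063, in E12. Mutant libraries exceeded WT for all 3 of these genes. Npc2, which hands on cholesterol in lysosomes, fell in VF (-1.29 ± 0.34, adjusted p = 0.013) and in E12 (-1.55 ± 0.35, adjusted p = 0.0082). Abcg1, a cholesterol exporter, was at 47, 27 and 24.6 CPM in WT, 106, 127 and 107 in VF and 29.7, 49.1 and 22.9 in E12. It was higher in VF than in WT (1.79 ± 0.36, adjusted p = 0.0039) and was the 1 gene of the list called between the mutants, lower in E12 (-1.75 ± 0.36, adjusted p = 0.037).

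In the list of fatty acid activation, elongation partners and lipid assembly, 22 of 26 genes passed the filter, with 6 higher and 7 lower in VF (27.3% and 31.8%, against 27.7% and 20.9% of all tested genes) and 3 higher and 5 lower in E12 (13.6% and 22.7%, against 23.9% and 18.1%). Of the enzymes of mitochondrial fatty acid synthesis, to which Mcat belongs, Mecr, Cbr4 and Ndufab1 fell in both mutants, while Oxsm, named after its values were seen, reached 1.54 ± 0.61, adjusted p = 0.062, in VF. Mecr, the reductase, was at 823, 350.2 and 327 CPM in WT, 56.8, 58.2 and 51.1 in VF and 105, 83.1 and 87.1 in E12, with -3.17 ± 0.39, adjusted p = 0.00054, in VF and -2.45 ± 0.38, adjusted p = 0.0024, in E12. Cbr4, a ketoreductase subunit, fell by 1.86 in VF (adjusted p = 0.00084) and 1.81 in E12 (adjusted p = 0.0018) on the log2 scale, and Ndufab1, the acyl carrier protein, fell by 3.16 in VF (adjusted p = 0.0033). These 3 genes are 800 to 1337 bases long, in the length classes that were lower at large. Acsl4, which activates arachidonate, was at 12.6, 11.3 and 15.5 CPM in WT, 21.8, 26.5 and 27.2 in VF and 44, 36.6 and 47.5 in E12, a rise of 1.70 ± 0.25, adjusted p = 0.00204, in E12. Lpin1, a phosphatidate phosphatase, was at 56.4, 36.2 and 48.7 CPM in WT, 19.7, 23.3 and 19.5 in VF and 59.3, 51.6 and 47.6 in E12. VF lay below both other groups, and it was the 1 gene of this list called between the mutants (1.34 ± 0.24, adjusted p = 0.024).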

How the data were processed

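The authors deposited whole-number counts per gene for each of the 9 libraries, with Entrez identifiers, symbols and another column, the gene length in bases, per the file headers. They also deposited log2 expression levels, used only as an alternative. The submitters' processing notes list STAR, limma, GRCm38 and mm10 with neither versions nor roles; which tool counted the reads, on which annotation, is not given in the sources used here. No pair of libraries of a group agreed within sampling noise in a chi-square test of their counts.

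Counts were tested with edgeR 4.0.16 in R 4.3.3: filterByExpr, TMM factors, 1 quasi-likelihood fit of all 9 libraries with group as its only term, two-sided p adjusted by Benjamini-Hochberg over 13608 genes, called under 0.05. Log2 fold changes carry standard errors (n = 3 per group). An exact permutation test of a single gene, 3 against 3, has a smallest p of 0.1. The fit was tested on simulated counts. The members, the lists beside them, the markers and the tests were chosen with earlier results of these data known. All members were described, and up to 3 genes per further list and comparison with the smallest p were named. Alternatives were RLE factors, no filter, DESeq2 1.42.0, limma-voom and limma 3.58.1 on the deposited levels, fits of 2 groups, offsets for gene length (lowess per library, span 0.3), leaving out each library in turn, and a replicate block. Leaving out WT 50 and E12 5 together, and the block's 4 libraries without the block, were chosen after seeing the data. Gene positions and promoters are from RefSeq tables on GRCm38.p6, and 8 members had no promoter entry. Figures were drawn with matplotlib 3.10.9.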

Additional observations from a re-analysis of the deposited data

How the results depend on the processing

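Counts of called genes moved mostly with the WT libraries. Leaving out 1 library gave, for VF against WT, 3 to 7 cholesterol genes higher and 3 to 8 lower, and 2 to 5 fatty acid genes higher and 3 to 5 lower. Of all tested genes, 20.1% to 32.8% were then called higher and 14.1% to 27.1% lower. For E12 against WT, leaving out 1 library gave 3 to 8 and 3 to 5 cholesterol genes. The fatty acid genes were 3 to 6 and 0 to 3, and the shares of all tested genes 16.4% to 28.4% and 9.48% to 24.5%. For E12 against VF, leaving out 1 library gave 0 higher and 0 to 2 lower cholesterol genes, and 0 to 3 higher and 0 lower fatty acid genes. The shares of all tested genes were 0.13% to 12.8% and 0.0072% to 10.7%. Leaving out WT 50 and E12 5 together gave 7 cholesterol genes higher and 8 lower in VF, 8 higher in E12, and 4 fatty acid genes higher in E12 than in VF. Of all tested genes, 33% were then higher and 26.6% lower in VF, 27% higher in E12, and 11.3% higher in E12 than in VF. With limma-voom 6 cholesterol genes were higher in VF, 5 in E12, and 1 fatty acid gene was higher in E12 than in VF. The shares of all tested genes were 36.3%, 30.4% and 3.02% in the same order. With limma on the deposited levels 6 fatty acid genes were higher in VF, 6 cholesterol genes were higher in E12, and between the mutants 1 cholesterol gene was lower and 3 fatty acid genes higher. There 25.5% of all tested genes were higher in VF and 21.1% in E12, and between the mutants 5.96% were lower and 7.15% higher. DESeq2 called 3 fatty acid genes lower in E12 than in WT, and 1 cholesterol gene lower and 3 fatty acid genes higher than in VF. Of all tested genes it called 24.6% lower in E12 than in WT, and 6.14% lower and 6.32% higher than in VF. With 2 groups alone, 0 fatty acid genes were lower in E12 than in WT, and between the mutants 6 cholesterol genes were higher and 2 lower and 9 fatty acid genes higher. In these fits 10.5% of all tested genes were lower in E12 than in WT, and between the mutants 25.4% were higher and 22.6% lower. RLE factors and no filter left every count within 1.5 times. The causes were not tested.

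With offsets for gene length, 8 cholesterol genes were lower in VF, and 1 fatty acid gene was higher and 8 were lower. Of all tested genes, 17.8% were then higher and 29.9% lower. In E12 1 fatty acid gene was higher and 2 lower, against 13% and 20.4% of all tested genes. Between the mutants 3 fatty acid genes were higher in E12 than in VF, against 7.69% of all tested genes. The sign against WT turned in VF for Lss (-1.26), Acaca (-1.37), Fasn (-1.03), Elovl6 (-0.92), Scd2 (-0.12) and Srebf1 (-0.69), and in E12 for Fasn (-0.24) and Elovl6 (-0.76). Of all calls, 57.0% were higher in VF and 56.9% in E12, against 37.3% and 39.0% with the offsets.

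VF and E12 share the numbers 1 and 2. Their same-numbered libraries correlated at 0.00975 and 0.103 in their deviations from the group means. Differently numbered ones ran from -0.198 to 0.227. With so few pairs, these values cannot tell whether same-numbered libraries share more than a number. With a replicate block on these 4 libraries, 4 cholesterol genes were higher in E12 than in VF and 2 lower, and 8 fatty acid genes were higher. Without the block the same 4 libraries gave 3, 2 and 8. Of all tested genes, 20.7% were higher and 19.7% lower with the block, and 20.3% and 19.4% without it. Depth limits the lowest values, 6 to 31 counts for Scd1 in VF, 1 for Acacb in WT 51 and 4 for Idi1 in WT 50.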
